A study of Mus musculus with 62 samples.

Results

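The 10 circadian clock genes Arntl, Clock, Per1, Per2, Per3, Cry1, Cry2, Nr1d1, Nr1d2 and Dbp were read by their symbols from a table of 47643 gene symbols. All 10 were found. Each had a mean of at least 1 TPM (a transcript's share of its library, corrected for its length and scaled to a fixed total), so all 10 were among the 11107 genes tested. RNA had been sequenced from the tibialis anterior, a fast hindlimb muscle, of female mice aged 2 months, in 62 libraries. They had been injected with melanoma cells that the labels call cachectic (CAC, with 5 libraries at each of 2, 4 and 6 weeks and 7 at 8 weeks), with melanoma cells called non-cachectic (NCAC, 5 libraries at each week), or with no cells as a mock control (Con, 5 libraries at each week). Cachexia is the wasting of muscle and fat that can come with a tumour. The sample labels name the strain C57BL6/J, while the design text of the series names NCI Ath/nude mice, and which of them was used cannot be told apart here; nude mice lack a thymus and mature T cells. The extraction text of all samples also speaks of LLC cells and a time of 3 weeks, which match none of these groups. The labels thus contradict each other on the injected cells. The labels give neither the names of the melanoma lines, nor the site of injection, nor the hour at which muscle was taken, so groups were compared only within a week and a difference in hour between groups was not tested.

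The clock is a loop of transcription. ARNTL (also called BMAL1) and CLOCK form a pair that binds E-boxes and activates the Per and Cry genes, whose proteins return to block that pair; the same pair drives Nr1d1 and Nr1d2 (REV-ERB alpha and beta), nuclear receptors that repress Arntl and Clock, and Dbp, a factor that activates genes through D-boxes. In healthy muscle the transcripts of Arntl and of Dbp peak at nearly opposite times of day. Per1 is also induced directly by glucocorticoids and by cAMP signalling.

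The promoters of 3 members are shown because they carry the motifs through which this loop runs: Per1 and Cry1 hold an E-box, and Per3 holds a pair of D-boxes. RefSeq promoters (GRCm38.p6) were available for 9 of the 10 members and were searched on both strands over the 250 bases before each annotated start; the motifs were the E-box CACGTG, the E-prime box CACGTT, the D-box TTATGTAA and its variant TTACGTAA, the AGGTCA core bound by REV-ERB and ROR receptors, and the cAMP response element TGACGTCA. Capitals mark the matches in the lines below, which run 5′ to 3′ on the gene's own strand and end at the base before the start.
Per1, chr11:69098699-69098948, plus strand: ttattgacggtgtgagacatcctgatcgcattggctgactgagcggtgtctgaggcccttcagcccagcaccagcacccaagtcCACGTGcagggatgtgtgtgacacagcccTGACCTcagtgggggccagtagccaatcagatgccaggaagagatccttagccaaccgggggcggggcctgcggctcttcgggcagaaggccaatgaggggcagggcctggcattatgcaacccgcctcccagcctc
Cry1, chr10:85185055-85185304, minus strand: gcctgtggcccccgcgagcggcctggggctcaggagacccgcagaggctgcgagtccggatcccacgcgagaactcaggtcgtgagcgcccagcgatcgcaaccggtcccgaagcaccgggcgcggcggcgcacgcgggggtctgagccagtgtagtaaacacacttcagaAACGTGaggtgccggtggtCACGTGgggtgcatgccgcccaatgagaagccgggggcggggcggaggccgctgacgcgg
Per3, chr4:151044666-151044915, minus strand: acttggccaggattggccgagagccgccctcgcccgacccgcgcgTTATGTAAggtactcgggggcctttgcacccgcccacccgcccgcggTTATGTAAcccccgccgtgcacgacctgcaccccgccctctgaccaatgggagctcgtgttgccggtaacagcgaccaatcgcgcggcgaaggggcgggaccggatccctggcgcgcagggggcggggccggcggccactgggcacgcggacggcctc
The E-box was in 2 of the 9 members matched, Per1 and Cry1, and in 6.86% of the 27025 genes of the table, where a gene counts if any of its listed promoters holds the motif. E-prime boxes were in Cry1, Cry2 and Nr1d1 and in 4.5% of all genes. The D-box was in Per3 alone of the 9 members, and in 0.977% of all genes. The AGGTCA core was in Clock, Nr1d2 and Per1 and in 15.8% of all genes. The D-box variant (0.118% of all genes) and the cAMP response element (1.77%) were in 0 of the 9 members over these bases. A match is a run of letters and shows no binding.

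In mock-injected muscle Dbp was the most abundant member and Clock the least. Over the 20 Con libraries Dbp averaged 72.2 ± 21.7 TPM (SD), Nr1d1 59.0 ± 35.4 TPM, Nr1d2 55.6 ± 7.33 TPM and Per1 21.1 ± 9.11 TPM. Cry2 followed with 13.8 ± 2.45 TPM, Per3 with 8.58 ± 2.05 TPM, Cry1 with 8.43 ± 1.27 TPM, Per2 with 6.38 ± 2.65 TPM, Arntl with 4.59 ± 3.07 TPM and Clock with 3.83 ± 1.41 TPM. Neighbours in this order differed by less than the larger of their SDs, except Nr1d2 from Per1 and Cry2 from Per3. Mock libraries, taken over all weeks together, differed widely in 4 members. The highest library stood above the lowest 7.55-fold for Arntl, 7.19-fold for Per2, 6.85-fold for Nr1d1 and 6.29-fold for Per1, and between 1.68-fold and 2.85-fold for the other 6. On the log2 scale the SD of Nr1d1 within Con groups was 0.99 and that of Arntl 0.76, above the SD of 99.32% and 98.72% of all genes tested, whose median was 0.20.

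The 7 muscle fibre markers, each averaging at least 1 TPM, summed to between 54900 and 106500 TPM in the libraries of all groups. The melanoma markers Mlana, Pmel, Tyr and Dct were under 1 TPM in every library. Blood and liver RNA stood out in few libraries: Con replicate 1 at 2 weeks held 1196 TPM of Alb (albumin, a liver transcript), Con replicate 2 at 2 weeks 194 TPM and Con replicate 3 at 4 weeks 142 TPM, while CAC replicate 3 at 8 weeks held 3252 TPM of Hba-a1, a haemoglobin chain. TPM keeps no read depth, so no interval for counting error is given.

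**Figure D1:**
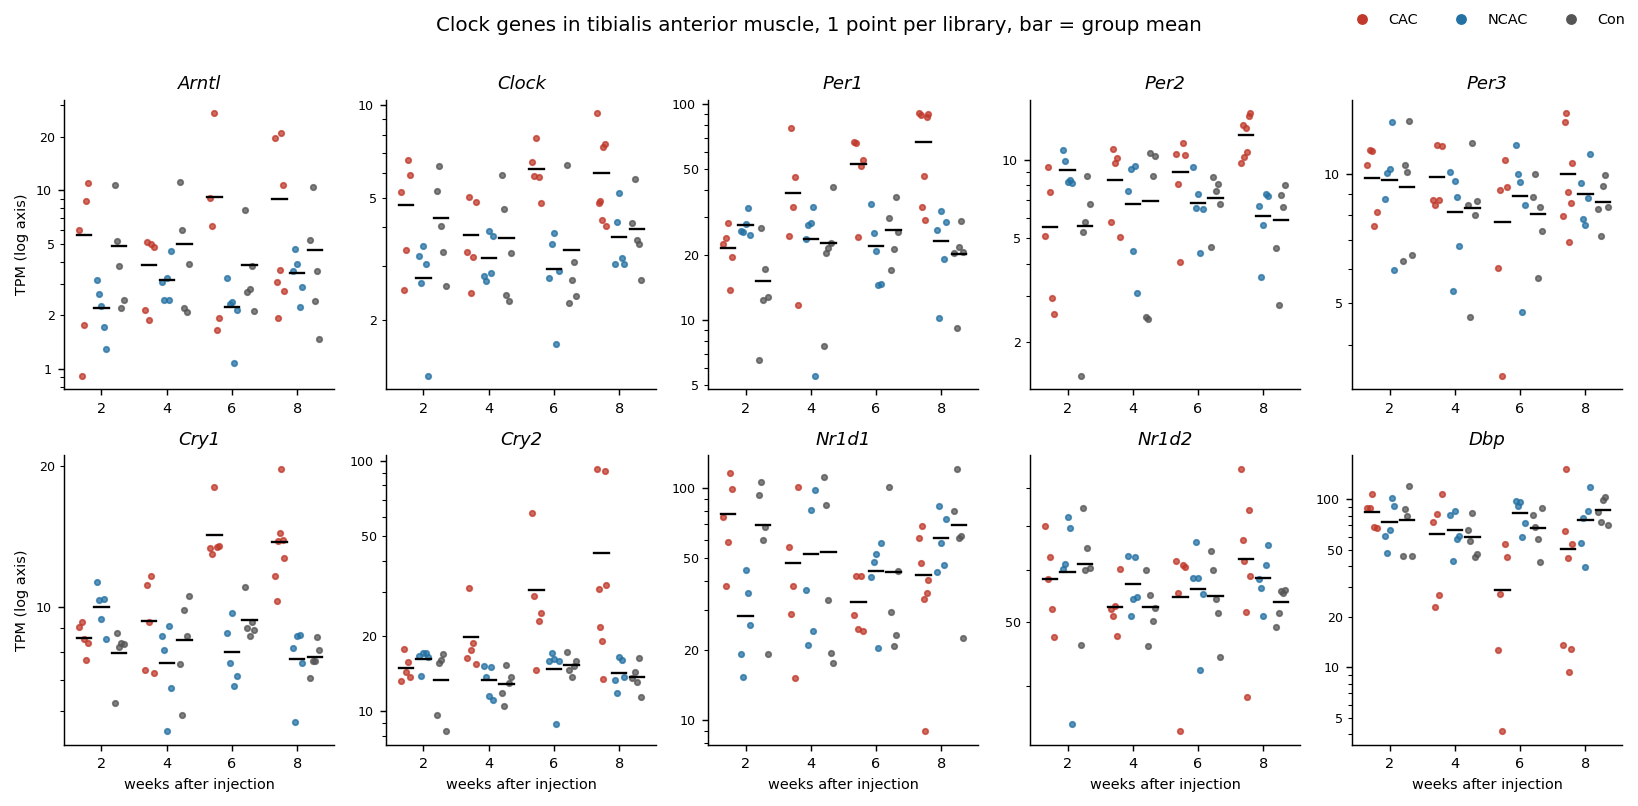
TPM of the 10 clock genes (log axis) against weeks after injection, with 1 point per library and a bar at each group mean, CAC left of NCAC left of Con in each week. At 6 and 8 weeks CAC libraries spread downwards for Dbp, to 4.16 TPM, and upwards for Per1, Cry1 and Cry2, while NCAC and Con groups overlap for all members.

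In muscle of mice with cachectic melanoma the clock genes moved in both directions at the late weeks. On the deposited values Dbp was lower at 6 and 8 weeks. Per1, Cry1, Cry2 and Clock were higher at both weeks, and Per2 was higher at 8 weeks. Of these calls, only those of Dbp at both weeks and of Per1 and Cry2 at 8 weeks were also made after the rescaling described below. Changes were tested with limma, a linear model fitted over all genes, on log2(TPM + 1), and called at an adjusted p (Benjamini-Hochberg over all 11107 genes) under 0.05. At 6 weeks 5 of 10 members passed against Con, where 64% of all genes tested did; 4 were higher (60.7% of all genes) and 1 was lower (3.26%). At 8 weeks 6 passed, where 74.5% of all genes did, with 5 higher (69.4%) and 1 lower (5.09%). The share of members called was thus no larger than that of all genes. TPM fixes each library's total, and the median gene stood 0.38 higher at 6 weeks and 0.46 higher at 8 weeks in CAC than in Con muscle on the log2 scale. The median member stood 0.40 higher at 6 weeks and 0.53 higher at 8 weeks.

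Each library was therefore also rescaled by its median ratio to the average library, which brought the median gene to 0.01 at 6 weeks and 0.02 at 8 weeks. The median member then stood at 0.00 at 6 weeks and 0.11 at 8 weeks. On this scale 0 members were higher and 2 lower at 6 weeks (16.9% and 18.1% of all genes tested), namely Dbp and Nr1d2. At 8 weeks 2 were higher, Per1 and Cry2, and 3 lower, Dbp, Nr1d1 and Nr1d2 (24.9% and 24.2% of all genes). Dbp lower at both weeks, and Per1 and Cry2 higher at 8 weeks, were thus the calls made on both scales. In bulk tissue, fewer cells of a type and less RNA per cell cannot be told apart.

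**Figure D2:**
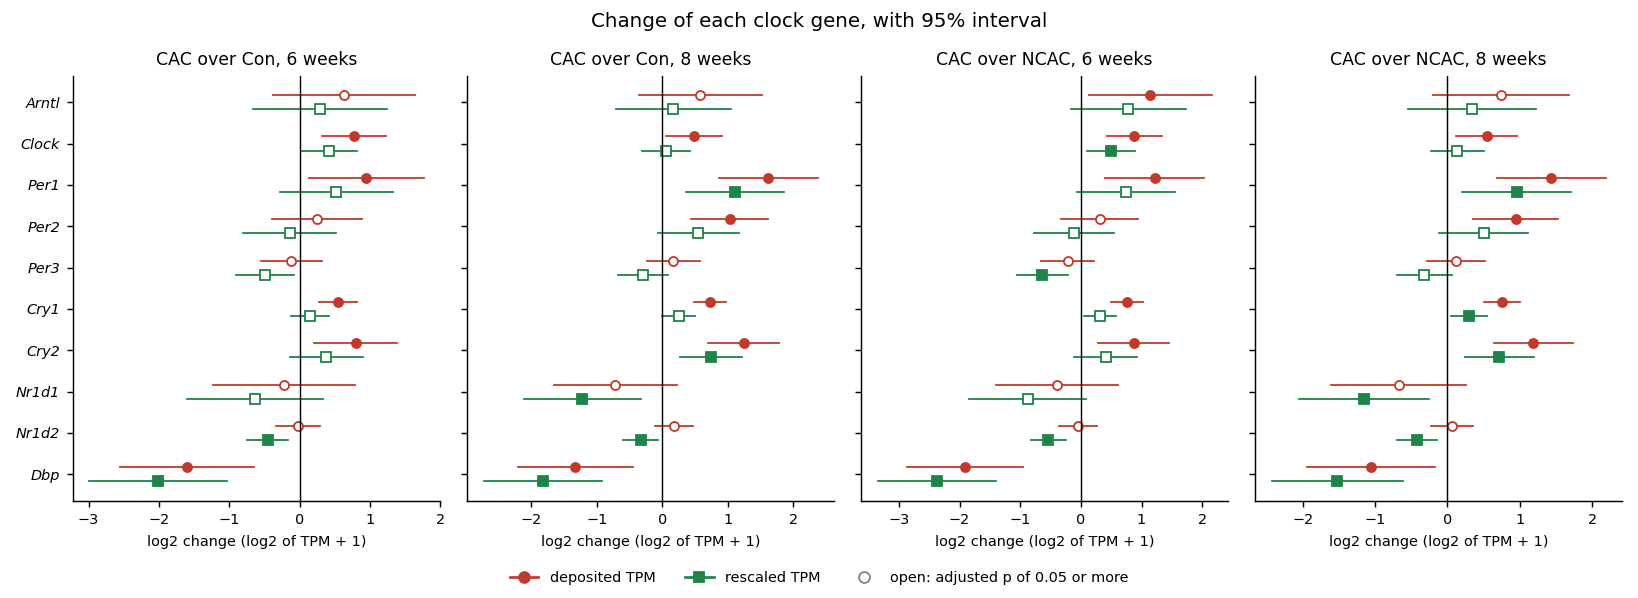
Log2 change of each clock gene with its 95% interval, for CAC over Con and CAC over NCAC at 6 and 8 weeks, from deposited TPM (circles) and rescaled TPM (squares); filled symbols have an adjusted p under 0.05. Dbp lies left of 0 in every panel on both scales, while the intervals of Per2, Cry1 and Clock move towards 0 when rescaled.

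Dbp, the D-box activator (chromosome 7, 45705088 to 45710203, plus strand, GRCm38), had 12.8, 27.4, 4.16, 54.0 and 45.3 TPM in the 5 CAC libraries at 6 weeks, against 97.4, 91.9, 96.0, 59.4 and 72.2 TPM in the NCAC and 81.0, 68.5, 58.1, 42.4 and 89.1 TPM in the Con libraries. The CAC libraries all lay below every NCAC library and overlapped Con through replicates 4 and 5. At 8 weeks the CAC libraries ran from 9.38 TPM through a median of 45.1 to 152 TPM, against 54.7, 77.2, 39.6, 85.3 and 118 TPM in NCAC and 84.1, 73.0, 99.3, 103 and 70.1 TPM in Con. CAC replicates 1, 5 and 6 had 13.5, 9.38 and 13.0 TPM, while replicate 3, the one rich in blood RNA, had the highest Dbp of all 62 libraries. The log2 change against Con was -1.60 ± 0.48 (SE, adjusted p = 0.00346) at 6 weeks and -1.33 ± 0.44 (adjusted p = 0.00621) at 8 weeks; rescaled, it was -2.01 (adjusted p = 0.00133) and -1.83 (adjusted p = 0.000807). Mean Dbp in CAC muscle was 0.59 of that in Con at 8 weeks, and 0.39 without CAC replicate 3. At 2 and 4 weeks CAC averaged 84.1 ± 16.6 and 62.4 ± 36.5 TPM, against 75.6 ± 30.9 and 59.4 ± 15.4 TPM in Con. Dbp shares 539 exon bases with Sphk2, a sphingosine kinase gene on the other strand, and whether reads were counted by strand is not given; Sphk2 stood 0.97 higher in CAC at 8 weeks (adjusted p = 2.77e-05), opposite in sign to Dbp.

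The order of Dbp and Per1 within a library does not depend on the library's scale. Dbp was below Per1 in 4 of 5 CAC libraries at 6 weeks and in 6 of 7 at 8 weeks, and above it in every NCAC and Con library at each week. The difference Dbp minus Per1 in log2(TPM + 1) ran from -2.30 to 0.06 in CAC, from 1.46 to 2.23 in NCAC and from 0.18 to 1.94 in Con muscle at 6 weeks. At 8 weeks it ran from -2.66 to 2.15 in CAC, from 0.29 to 2.80 in NCAC and from 1.72 to 2.86 in Con. At 4 weeks Dbp was already below Per1 in 2 of 5 CAC libraries, and at 2 weeks in 0 of 5. This pair was chosen after the values were seen and was given no test.

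Nr1d1, the REV-ERB alpha repressor (chromosome 11, 98767932 to 98775333, minus strand), ran from 8.96 TPM through a median of 40.4 to 68.9 TPM in the 7 CAC libraries at 8 weeks, against 43.6, 83.8, 57.8, 46.9 and 73.5 TPM in NCAC and 79.9, 121.5, 61.0, 62.3 and 22.5 TPM in Con. The groups overlapped, since Con replicate 5 was lower than 6 of the 7 CAC libraries. The log2 change was -0.72 ± 0.47 (adjusted p = 0.157) as deposited and -1.22 (adjusted p = 0.0206) rescaled. Without Con replicate 5 the deposited values gave -1.07 (adjusted p = 0.0473); the rescaled call ended without CAC replicate 5 (-0.91, adjusted p = 0.0744), without Con replicate 1 (-1.13, adjusted p = 0.0512) and without Con replicate 2 (-1.04, adjusted p = 0.0703). Thra, a thyroid hormone receptor gene with a mean of 36.7 TPM, overlaps 263 exon bases of Nr1d1 on the other strand and stood 0.13 higher in CAC at 8 weeks (adjusted p = 0.388). Rescaled, Thra was lower, as Nr1d1 was, at -0.38 (adjusted p = 0.00261) at 8 weeks, and at -0.33 (adjusted p = 0.0195) at 6 weeks. How reads of the overlap were divided is not given, so the part of Thra in the rescaled call of Nr1d1 was not tested.

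Nr1d2, REV-ERB beta (chromosome 14, 18204054 to 18239127, minus strand), hardly varied in Con muscle at 8 weeks, with 49.2, 51.7, 55.8, 55.4 and 56.0 TPM, against 38.5 to 85.5 TPM with a median of 61.97 in CAC. Its log2 change at 8 weeks was 0.18 ± 0.14 (adjusted p = 0.255) as deposited and -0.33 (adjusted p = 0.0365) rescaled, so its direction turned with the scale. Leaving out any 1 of CAC replicates 4 and 5 and Con replicates 3, 4 and 5 ended the rescaled call, with changes from -0.32 to -0.23 and adjusted p from 0.0595 to 0.136. At 6 weeks the change was -0.03 ± 0.16 (adjusted p = 0.892) and, rescaled, -0.45 (adjusted p = 0.0128), a call that ended without CAC replicate 3 (-0.30, adjusted p = 0.0896), whose 34.1 TPM was far below the other 4 CAC libraries at 55.4 to 61.9 TPM.

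Per1, the period gene with direct hormone inputs (chromosome 11, 69095217 to 69109960, plus strand), had 66.6, 66.3, 24.3, 51.6 and 55.3 TPM in CAC muscle at 6 weeks, against 34.7, 25.5, 20.8, 14.5 and 14.6 TPM in NCAC and 29.8, 17.1, 21.3, 37.3 and 25.7 TPM in Con. All CAC libraries but replicate 3 lay above every NCAC and Con library. At 8 weeks CAC ran from 29.1 TPM through a median of 87.3 to 91.1 TPM, against 26.3, 10.3, 32.2, 19.2 and 28.6 TPM in NCAC and 20.4, 9.18, 21.9, 28.9 and 20.6 TPM in Con. CAC and Con did not overlap at 8 weeks, and 4 of the 7 CAC libraries lay between 87.3 and 91.1 TPM. The log2 change against Con was 1.62 ± 0.38 (adjusted p = 0.000168), a 3.30-fold ratio of means, and 1.11 (adjusted p = 0.0123) rescaled. Without Con replicate 2 the rescaled change was 0.81 (adjusted p = 0.0819). At 6 weeks the change was 0.95 ± 0.41 (adjusted p = 0.0374), and 0.53 (adjusted p = 0.313) rescaled. That call at 6 weeks also ended with each of CAC replicates 1, 2, 4 and 5 and Con replicates 2, 3 and 5 left out, at changes from 0.82 to 0.95 and adjusted p from 0.0536 to 0.0957.

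Per2, the partner of Per1 in repression (chromosome 1, 91415982 to 91459324, minus strand), passed at 8 weeks. In CAC it ran from 9.78 TPM through a median of 13.2 to 15.1 TPM at 8 weeks, above all NCAC libraries (6.68, 3.56, 5.65, 7.42 and 7.28 TPM) and all Con libraries (4.61, 2.77, 7.35, 6.60 and 8.01 TPM). Its log2 change against Con was 1.03 ± 0.30 (adjusted p = 0.00187), or 0.55 (adjusted p = 0.130) rescaled. At 6 weeks it was 0.25 ± 0.32 (adjusted p = 0.508), or -0.14 (adjusted p = 0.768) rescaled. Per3 (chromosome 4, 151003652 to 151044665, minus strand), whose promoter above holds the pair of D-boxes, did not pass: it averaged 7.73 ± 2.99 TPM in CAC and 8.06 ± 1.62 TPM in Con muscle at 6 weeks, and 10.02 ± 2.65 TPM in CAC and 8.62 ± 1.06 TPM in Con at 8 weeks. Its log2 changes were -0.12 ± 0.22 (adjusted p = 0.650) and 0.17 ± 0.20 (adjusted p = 0.451). Rescaled they were -0.49 (adjusted p = 0.0592) at 6 weeks and -0.30 (adjusted p = 0.195) at 8 weeks, so the direction at 8 weeks turned with the scale.

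Cry1, a repressor of the ARNTL and CLOCK pair (chromosome 10, 85131700 to 85185064, minus strand), was higher in CAC than in Con muscle at both late weeks, with no overlap. It had 13.4, 13.0, 18.0, 13.4 and 13.5 TPM in CAC muscle at 6 weeks, against 8.79, 7.59, 9.73, 6.78 and 7.11 TPM in NCAC and 11.1, 9.03, 8.68, 9.27 and 8.92 TPM in Con. Every CAC library lay above every NCAC and Con library of that week. At 8 weeks CAC ran from 10.3 TPM through a median of 13.8 to 19.8 TPM, against 8.17, 5.67, 8.66, 8.70 and 7.60 TPM in NCAC and 7.06, 7.67, 7.67, 8.65 and 8.11 TPM in Con, again without overlap. The log2 change against Con was 0.55 ± 0.13 (adjusted p = 0.00054) at 6 weeks and 0.72 ± 0.12 (adjusted p = 1.76e-06) at 8 weeks. The median gene stood 0.38 higher at 6 weeks and 0.46 higher at 8 weeks, and the rescaled changes of Cry1 were 0.15 (adjusted p = 0.405) and 0.25 (adjusted p = 0.0951).

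Cry2, the second cryptochrome (chromosome 2, 92403646 to 92434043, minus strand), rose unevenly. In CAC muscle at 6 weeks it had 62.2, 28.9, 14.6, 22.9 and 24.7 TPM, against 15.9, 17.1, 16.3, 8.93 and 15.8 TPM in NCAC and 17.3, 14.6, 13.8, 15.1 and 15.8 TPM in Con. At 8 weeks CAC ran from 13.5 TPM through a median of 30.7 to 93.3 TPM, against 13.3, 11.9, 16.6, 16.0 and 13.7 TPM in NCAC and 13.6, 14.4, 13.1, 16.3 and 11.4 TPM in Con. CAC replicates 1 and 6 at 8 weeks had 93.3 and 91.0 TPM, while replicate 5 lay within the Con range. The log2 change against Con at 8 weeks was 1.24 ± 0.27 (adjusted p = 7.77e-05), and 0.74 (adjusted p = 0.00878) rescaled. At 6 weeks it was 0.80 ± 0.29 (adjusted p = 0.016), which ended when rescaled (0.38, adjusted p = 0.246) and without CAC replicate 1 (0.51, adjusted p = 0.131).

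Of the pair of activators, Clock passed against Con as deposited and Arntl, whose SE was larger, did not. When rescaled, neither passed against Con at 6 or 8 weeks, and a difference between the changes of the pair was not tested. Arntl (chromosome 7, 113207465 to 113314126, plus strand) had 9.11, 6.34, 27.0, 1.65 and 1.93 TPM in CAC muscle at 6 weeks, against 3.23, 2.31, 2.36, 1.08 and 2.14 TPM in NCAC and 7.75, 2.70, 2.80, 3.77 and 2.10 TPM in Con. CAC libraries thus spanned the whole range of Con and went beyond it on both sides. At 8 weeks CAC ran from 1.92 TPM through a median of 3.58 to 20.9 TPM, against 3.52, 4.68, 3.86, 2.22 and 2.90 TPM in NCAC and 5.29, 10.5, 2.40, 3.56 and 1.47 TPM in Con. The log2 change against Con was 0.63 ± 0.51 (adjusted p = 0.271) at 6 weeks and 0.58 ± 0.47 (adjusted p = 0.261) at 8 weeks, and rescaled 0.29 (adjusted p = 0.666) and 0.17 (adjusted p = 0.774). Without CAC replicate 3 the ratio of CAC to Con means at 6 weeks was 1.25, against 2.41 with it.

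Clock (chromosome 5, 76209868 to 76304792, minus strand), the partner of ARNTL, had 6.53, 5.88, 7.85, 5.82 and 4.82 TPM in CAC muscle at 6 weeks, against 2.75, 3.52, 3.84, 1.67 and 2.88 TPM in NCAC and 6.39, 2.27, 2.69, 3.09 and 2.40 TPM in Con. Con replicate 1 alone reached the CAC range. The log2 change against Con was 0.78 ± 0.23 (adjusted p = 0.0032) at 6 weeks, or 0.42 (adjusted p = 0.0899) rescaled. At 8 weeks Clock averaged 6.02 ± 2.05 TPM in CAC (n = 7) and 3.95 ± 1.14 TPM in Con (n = 5), a log2 change of 0.48 ± 0.21 (adjusted p = 0.0362) that was 0.06 (adjusted p = 0.821) rescaled. With library weights per group, shared by all genes, the adjusted p at 8 weeks was 0.0977. Leaving out any 1 of CAC replicates 1, 5 and 6 or Con replicates 3, 4 and 5 gave adjusted p from 0.0631 to 0.124.

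The earlier weeks and the non-cachectic tumour gave no call. Against Con, 0 of 10 members passed in CAC muscle at 2 weeks (0.054% of all genes did) and at 4 weeks (0.936%), and 0 members had an unadjusted p under 0.05 at either week. The largest change at 4 weeks was that of Per1, with 24.4, 77.9, 33.3, 45.9 and 11.8 TPM in CAC against 7.58, 20.4, 21.5, 22.8 and 41.3 TPM in Con, a log2 change of 0.66 ± 0.41 (adjusted p = 0.434). NCAC muscle differed from Con in 0 members at 2 weeks (0.162% of all genes), 4 weeks (0%), 6 weeks (0%) and 8 weeks (0.009%), and in 0 members on average over the weeks (0%). Unadjusted p was under 0.05 for 5 of 10 members at 2 weeks in that comparison, where it was for 281 of the 11107 genes, and for 0 members at the other weeks and on average. Those 5 were Clock (-0.49), Per1 (0.94), Per2 (0.74), Cry1 (0.30) and Nr1d1 (-1.17), in log2 change of NCAC over Con. For Nr1d1 the 5 NCAC libraries at 2 weeks had 19.3, 15.4, 44.4, 35.4 and 25.7 TPM, against 93.5, 106.5, 59.6, 67.8 and 19.2 TPM in Con. Averaged over the weeks, the changes of NCAC over Con lay between -0.44 ± 0.25 for Arntl and 0.22 ± 0.20 for Per1.

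The test of the change itself between weeks called few members. From 2 to 8 weeks the difference between CAC and Con grew by 0.62 ± 0.18 for Cry1 (adjusted p = 0.00806) and by 1.04 ± 0.40 for Cry2 (adjusted p = 0.0354), in a comparison in which 39% of all genes passed. Dbp, at -1.55 ± 0.65 (adjusted p = 0.0507), and Per2, at 1.03 ± 0.44 (adjusted p = 0.053), did not pass. Dbp passed when rescaled (-1.91, adjusted p = 0.0351), where Cry1 (0.28, adjusted p = 0.281) and Cry2 (0.67, adjusted p = 0.163) did not. Without the 3 libraries above 100 TPM of Alb, Per2 passed (1.44, adjusted p = 0.0149) and Cry2 did not (1.08, adjusted p = 0.0628); both also changed sides with single libraries left out. Between adjacent weeks 0 members passed, where 0% of all genes did from 2 to 4 weeks, 0.882% from 4 to 6 weeks and 0% from 6 to 8 weeks. Unadjusted p was under 0.05 for 0 members from 2 to 4 weeks, for 3 from 4 to 6 weeks, where it was for 3004 of the 11107 genes, and for 0 from 6 to 8 weeks.

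CAC muscle was also set against NCAC muscle, which asks whether the cachectic tumour differs from another melanoma. At 2 weeks (0.063% of all genes) and 4 weeks (5.27%) 0 of 10 members passed, with an unadjusted p under 0.05 for 3 members at 2 weeks (778 of the 11107 genes) and for 0 at 4 weeks (2900 genes). At 6 weeks 6 passed (67.7% of all genes), 5 higher (64.2%) and 1 lower (3.52%). Dbp was lower by a log2 change of -1.92 ± 0.48 (adjusted p = 0.000513), while Clock at 0.88 ± 0.23, Per1 at 1.22 ± 0.41, Cry1 at 0.76 ± 0.13, Cry2 at 0.87 ± 0.29 and Arntl at 1.14 ± 0.51 were higher, with adjusted p from 5.79e-06 to 0.0415. The call of Arntl rested on few libraries: without CAC replicate 3 it was 0.64 (adjusted p = 0.257), and leaving out CAC replicate 1 or 2 or NCAC replicate 2, 3, 4 or 5 ended it too. Cry2 missed without CAC replicate 1 (0.58, adjusted p = 0.0778). Rescaled, 1 member was higher (20.8% of all genes), Clock at 0.50 (adjusted p = 0.0381), and 3 were lower (21.7%), Dbp at -2.38 (adjusted p = 0.000125), Per3 at -0.64 (adjusted p = 0.0119) and Nr1d2 at -0.53 (adjusted p = 0.00282).

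At 8 weeks 6 members passed between CAC and NCAC (72.1% of all genes), 5 higher (67%) and 1 lower (5.04%). Per1 stood at 1.43 ± 0.38 (adjusted p = 0.000751), Cry2 at 1.19 ± 0.27 (adjusted p = 0.000148), Per2 at 0.94 ± 0.30 (adjusted p = 0.00428), Cry1 at 0.75 ± 0.12 (adjusted p = 1.1e-06) and Clock at 0.54 ± 0.21 (adjusted p = 0.0196). Dbp was lower, at -1.06 ± 0.44 (adjusted p = 0.0288), a call that ended with 6 single libraries left out in turn, CAC replicates 1, 5 and 6 and NCAC replicates 2, 4 and 5, at adjusted p from 0.0526 to 0.105. Clock missed without CAC replicate 1 (0.44, adjusted p = 0.062) and without NCAC replicate 1 (0.49, adjusted p = 0.0508). Rescaled, 3 members were higher (25.3% of all genes), Per1, Cry1 and Cry2, and 3 lower (24.3%), Dbp at -1.53 (adjusted p = 0.00445), Nr1d1 at -1.15 (adjusted p = 0.0285) and Nr1d2 at -0.42 (adjusted p = 0.00827).

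Libraries of one group also differed from each other in these genes. The SD of Dbp within groups, on the log2 scale, was 1.17 in CAC, 0.45 in NCAC and 0.42 in Con muscle; that of Arntl was 1.14 in CAC, 0.33 in NCAC and 0.76 in Con; and that of Cry2 was 0.73 in CAC, 0.23 in NCAC and 0.26 in Con. The SD was largest in Con for Nr1d1 (0.79 in CAC, 0.67 in NCAC, 0.99 in Con), Per2 (0.48, 0.40, 0.66) and Clock (0.38, 0.30, 0.42). For Per1 it was 0.70 in CAC and 0.65 in Con, for Per3 0.37 and 0.34, for Cry1 0.23 and 0.19, and for Nr1d2 0.29 and 0.18. At 2 weeks the SD of Dbp was 0.28 in CAC and 0.59 in Con. The median gene had an SD of 0.23 in CAC, 0.20 in NCAC and 0.20 in Con. In CAC muscle, libraries high in Arntl were low in Dbp. CAC replicate 3 at 6 weeks combined the highest Arntl of all libraries, 27.0 TPM, with the lowest Dbp, 4.16 TPM, and the lowest Per3, 3.38 TPM. At 8 weeks CAC replicates 1, 5 and 6, with 19.7, 20.9 and 10.7 TPM of Arntl, had 13.5, 9.38 and 13.0 TPM of Dbp, while replicate 3 had 1.92 TPM of Arntl and 152 TPM of Dbp.

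These relations were computed on each library's deviation from its group mean, with permutations within groups and adjustment over the 27 relations of 9 members in 3 treatments. In the 22 CAC libraries Dbp was related to Arntl with r = -0.84 (rho = -0.83, permutation adjusted p = 0.000135 for r and 9e-05 for rho). Per3 gave r = -0.84 (rho = -0.86, permutation adjusted p = 0.000216 and 9e-05), Per2 r = -0.63 (rho = -0.56, permutation adjusted p = 0.0132 and 0.0346) and Clock r = 0.85 (rho = 0.80, permutation adjusted p = 0.000203 for both). Without the 2 libraries farthest in Arntl, r was -0.84 for Dbp, -0.81 for Per3, -0.47 for Per2 and 0.84 for Clock. In the 20 NCAC libraries Dbp had r = -0.11 (rho = -0.18, permutation adjusted p = 0.789 and 0.83), and in the 20 Con libraries r = -0.16 (rho = -0.11, permutation adjusted p = 0.716 and 0.83). Arntl itself spanned less in NCAC than in CAC, and whether r differs between treatments was not tested. On rescaled values r between Dbp and Arntl was -0.84 in CAC, -0.27 in NCAC and -0.45 in Con.

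In Con muscle Nr1d1, Per2 and Clock had the largest r with Arntl on deposited values. Nr1d1 had r = 0.77 in the 20 Con libraries (rho = 0.75, permutation adjusted p = 0.00212 and 0.00531), against r = -0.12 in the 22 CAC libraries (rho = -0.01, permutation adjusted p = 0.745 and 0.955). Per2 had r = -0.88 in Con (rho = -0.83, permutation adjusted p = 0.000135 and 0.000594), and Clock r = 0.89 (rho = 0.91, permutation adjusted p = 0.00018 and 9e-05). Clock was the only member of the 9 related to Arntl in all 3 treatments, with r = 0.68 in NCAC (rho = 0.63, permutation adjusted p = 0.0132 and 0.0265). Without the 2 farthest libraries, r in Con was 0.70 for Nr1d1, -0.83 for Per2 and 0.86 for Clock, and r for Clock in NCAC was 0.47. The relations in Con changed with the scale. Rescaled r was 0.73 for Nr1d1, -0.93 for Per2 and 0.87 for Clock. It was also -0.66 for Per3 (-0.32 as deposited), -0.67 for Cry1 (-0.36), -0.58 for Cry2 (-0.08) and -0.48 for Nr1d2 (-0.07). In CAC the r of Nr1d2 was -0.63 rescaled and -0.36 as deposited.

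**Figure D3:**
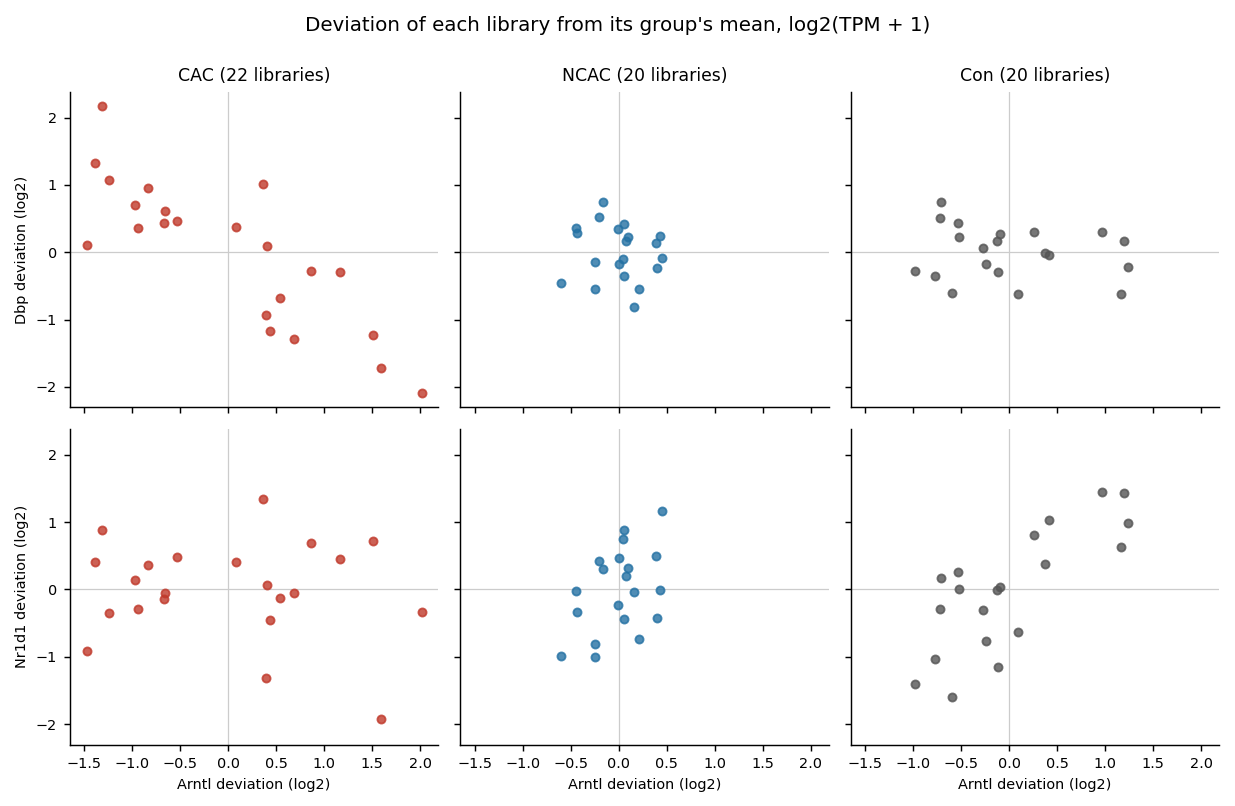
Deviation of each library from its group mean in log2(TPM + 1), for Dbp (top) and Nr1d1 (bottom) against Arntl, in 22 CAC, 20 NCAC and 20 Con libraries. On these deposited values r for Dbp was -0.84 in CAC and -0.16 in Con (-0.45 in Con when rescaled), and r for Nr1d1 was -0.12 in CAC and 0.77 in Con.

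Over all 62 libraries the genes whose deviations from the group means were most like those of Arntl were Slc16a9 (r = 0.87), Slc25a36 (0.82), Gramd4 (0.78), Dyrk2 (0.77) and Zhx2 (0.77), with its partner Clock at 0.80. Those most like Dbp were Gpam (r = 0.71), Hlf (0.71), Pdp1 (0.68), Angptl2 (0.67) and Map2k6 (0.67), with the member Per3 at 0.70. Those most like Per1 were Tob2 (r = 0.85), Klf6 (0.81), Sik1 (0.79), Arrdc2 (0.76) and Plk3 (0.75), with Per2 at 0.66. These correlations share libraries and their scale and were given no test.

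Among 19 partners and regulators of the clock, 15 were tested, and CAC muscle had 8 higher and 1 lower than Con at 6 weeks (60.7% and 3.26% of all genes) and 11 higher and 1 lower at 8 weeks (69.4% and 5.09%). The median change of the list was 0.44 at 6 weeks and 0.68 at 8 weeks, beside 0.38 and 0.46 for all genes. Rescaled, 3 were higher and 3 lower at 6 weeks (16.9% and 18.1% of all genes), and 8 higher and 3 lower at 8 weeks (24.9% and 24.2%). Nfil3, a repressor that binds the same D-boxes as DBP, averaged 80.5 ± 33.4 TPM in CAC and 8.31 ± 2.53 TPM in Con muscle at 8 weeks, a log2 change of 2.99 ± 0.48 (adjusted p = 5.74e-07). Rescaled it was 2.48 (adjusted p = 4.28e-05), and at 6 weeks 2.04 ± 0.52 (adjusted p = 0.000804) as deposited. Csnk1e, a kinase of the PER proteins, averaged 22.5 ± 6.99 TPM in CAC and 11.5 ± 1.31 TPM in Con at 8 weeks, a change of 0.87 ± 0.14 (adjusted p = 8.80e-07), and 0.37 rescaled (adjusted p = 0.00478).

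Timeless, a chromosome replication factor linked to the clock, was the sole gene of the 3 lists to pass against Con at 4 weeks, where 0.936% of all genes did. It had 2.21 ± 0.33 TPM in CAC and 1.18 ± 0.34 TPM in Con (log2 change 0.57 ± 0.12, adjusted p = 0.00375), levels near the limit of 1 TPM set for testing. Timeless stood 0.97 higher at 6 weeks and 0.87 higher at 8 weeks, where the median gene stood 0.38 and 0.46 higher. Nono, an RNA-binding partner of the PER proteins, stood 0.68 ± 0.09 higher at 8 weeks (adjusted p = 2.39e-08) and 0.18 rescaled (adjusted p = 0.00348). At 6 weeks Nono (0.52, adjusted p = 3.89e-05) and Csnk1d, a further kinase of these proteins (0.60, adjusted p = 0.000353), passed as deposited and not when rescaled. Bhlhe41, a repressor that binds E-boxes and is named here because it was the only lower gene of the list, fell to 6.77 ± 3.68 TPM in CAC, against 11.9 ± 3.15 TPM in Con, at 8 weeks (log2 change -0.82 ± 0.22, adjusted p = 0.000979). Its call at 6 weeks (-0.56, adjusted p = 0.0369) ended without CAC replicate 1 (-0.42, adjusted p = 0.148) or 2 (-0.55, adjusted p = 0.055) and without Con replicate 1 (-0.43, adjusted p = 0.127) or 4 (-0.52, adjusted p = 0.0701). Rescaled, Bhlhe41 was lower by more, at -0.93 (adjusted p = 0.00208) at 6 weeks and -1.26 (adjusted p = 6.81e-06) at 8 weeks.

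Of 10 genes known as clock outputs, all tested, 3 were higher at 6 weeks and 5 at 8 weeks in CAC than in Con muscle, beside 60.7% and 69.4% of all genes. At both weeks 0 were lower, beside 3.26% and 5.09% of all genes. Their median change was 0.29 at 6 weeks and 0.20 at 8 weeks, beside 0.38 and 0.46 for all genes. Rescaled, 0 were higher and 1 lower at 6 weeks (16.9% and 18.1% of all genes), and 1 higher and 3 lower at 8 weeks (24.9% and 24.2%). At 8 weeks Nampt, the enzyme that recycles nicotinamide to NAD, stood at 0.72 ± 0.16 (adjusted p = 0.000129), Por, the electron donor of P450 enzymes, at 0.89 ± 0.21 (adjusted p = 0.000235), and Wee1, a cell cycle kinase, at 0.62 ± 0.22 (adjusted p = 0.0103). Of these 3, Por alone passed when rescaled (0.42, adjusted p = 0.0493), and its call at 6 weeks (0.59, adjusted p = 0.0232) ended without CAC replicate 1 (0.35, adjusted p = 0.178) and without Con replicate 1 (0.52, adjusted p = 0.0597). Pdk4, which restrains glucose oxidation, averaged 1307 ± 1522 TPM in CAC and 284.6 ± 50.1 TPM in Con; its call (1.29 ± 0.55, adjusted p = 0.03) ended when rescaled (0.77, adjusted p = 0.229) and without CAC replicate 1, 2 or 6 or Con replicate 3 or 5, at adjusted p from 0.0527 to 0.130. At 6 weeks Slc2a4, the insulin-responsive glucose transporter, stood at 0.38 (adjusted p = 0.00185) and Nampt at 0.61 (adjusted p = 0.00275), and neither passed when rescaled.

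A list of 10 genes, all tested, held the glucocorticoid receptor gene Nr3c1, glucocorticoid targets and immediate early genes. Of these, 5 were higher at 6 weeks and 6 at 8 weeks, beside 60.7% and 69.4% of all genes. At both weeks 0 were lower, beside 3.26% and 5.09% of all genes. Rescaled, 3 were higher and 2 lower at 6 weeks (16.9% and 18.1% of all genes), and 4 higher and 1 lower at 8 weeks (24.9% and 24.2%). The median change was 0.58 at 6 weeks and 1.09 at 8 weeks, beside 0.38 and 0.46 for all genes. Fkbp5, a co-chaperone of the glucocorticoid receptor, averaged 104 ± 57.7 TPM in CAC and 7.71 ± 2.80 TPM in Con muscle at 8 weeks, a log2 change of 3.27 ± 0.56 (adjusted p = 1.92e-06). Sgk1, a kinase induced by glucocorticoids, averaged 138 ± 29.1 TPM in CAC and 47.4 ± 15.1 TPM in Con (1.54 ± 0.24, adjusted p = 3.72e-07). Tsc22d3, which encodes the leucine zipper GILZ, stood at 1.46 ± 0.25 (adjusted p = 2.04e-06) and Zbtb16, a zinc finger repressor, at 2.07 ± 0.43 (adjusted p = 3.17e-05); these 4 passed at 8 weeks on both scales. At 6 weeks Fkbp5 stood at 3.01, Sgk1 at 1.11, Tsc22d3 at 1.15 and Zbtb16 at 1.37, and Zbtb16 did not pass when rescaled (0.95, adjusted p = 0.0957).

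**Figure D4:**
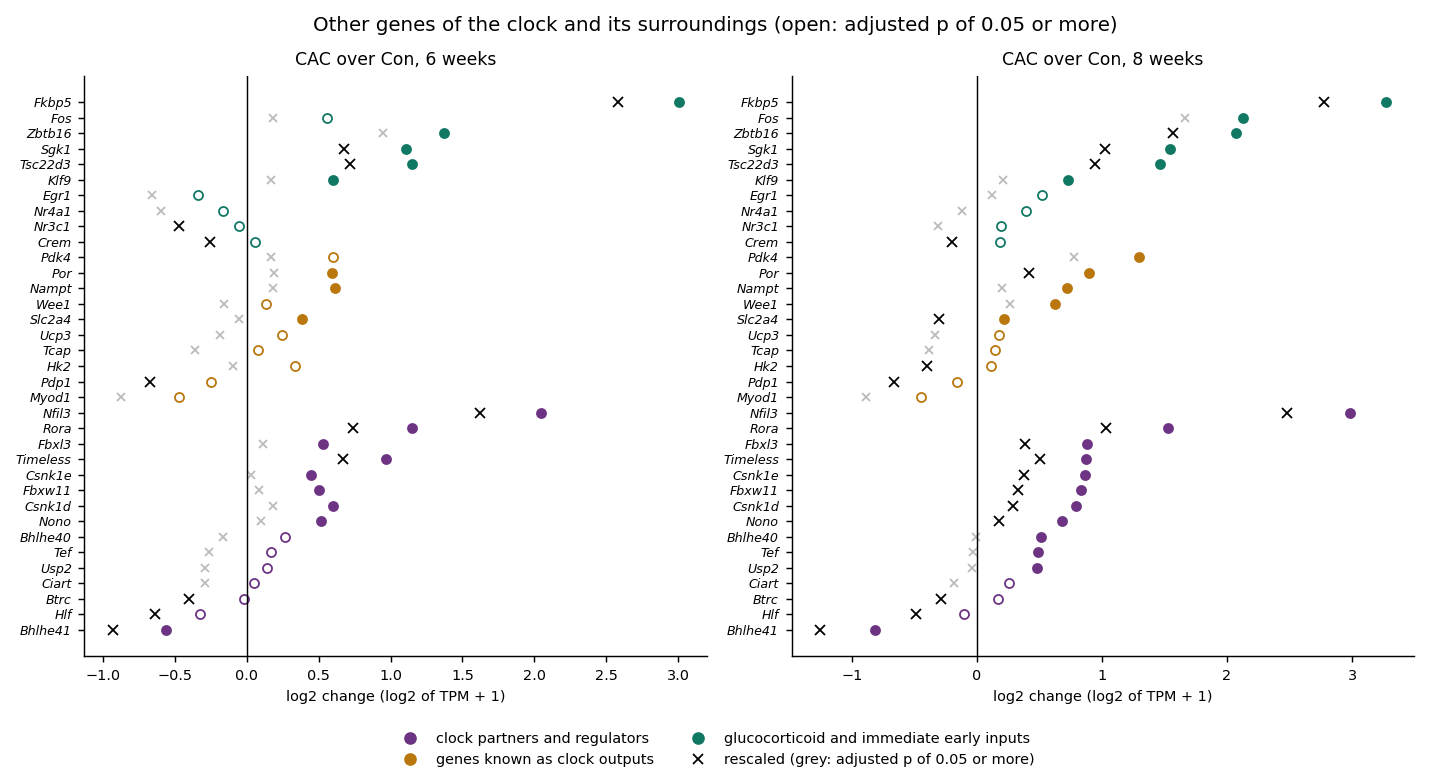
Log2 change of CAC over Con for the tested genes of 3 lists around the clock at 6 and 8 weeks, as deposited (circles, filled where adjusted p is under 0.05) and rescaled (crosses). Nfil3 and Fkbp5 lie farthest right at both weeks, at 2.99 and 3.27 at 8 weeks, and Bhlhe41 is the only filled circle left of 0.

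Summed markers of immune cells, fibroblasts, endothelium and adipocytes had higher medians in CAC than in NCAC and Con muscle at 6 and 8 weeks. Schwann cell markers overlapped at 8 weeks, at 17.4 to 49.8 TPM in CAC, 12.1 to 35.2 TPM in NCAC and 9.86 to 72.1 TPM in Con. The medians of blood markers were then 529.6 TPM in CAC, 555.2 TPM in NCAC and 631 TPM in Con. Those of liver markers were 0.02 TPM in CAC, 0.21 TPM in NCAC and 0 TPM in Con. At 8 weeks the 5 immune markers summed to 50.7 to 151 TPM in CAC, 20.2 to 32.9 TPM in NCAC and 29.4 to 58.0 TPM in Con muscle. Of these 5, 3 averaged at least 1 TPM, and Ptprc, the pan-leukocyte marker, was under 1 TPM in every library. The 4 fibroblast markers summed to 229.8 to 606 TPM in CAC, 168 to 288.7 TPM in NCAC and 167 to 304 TPM in Con; the 3 endothelial markers to 124 to 163 TPM in CAC, 72.9 to 103 TPM in NCAC and 72.9 to 107 TPM in Con; and the 3 adipocyte markers to 59.8 to 222 TPM in CAC, 17.5 to 49.3 TPM in NCAC and 11.5 to 55.8 TPM in Con. At 6 weeks the adipocyte sums were 80.6 to 441.9 TPM in CAC, 3.87 to 116.9 TPM in NCAC and 17.2 to 51.4 TPM in Con, and the immune sums 52.0 to 72.1 TPM in CAC, 24.9 to 39.2 TPM in NCAC and 23.8 to 38.6 TPM in Con. These sums are deposited TPM and were not rescaled. On that scale the median gene also stood higher in CAC than in Con, by 0.38 at 6 weeks and 0.46 at 8 weeks in log2. The part of these cell types in the changes of the clock genes was not tested.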

How the data were processed

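Libraries were prepared with a kit that keeps the strand of mRNA and sequenced on an Illumina NovaSeq, per the labels. Values are the TPM that the authors deposited, in a single table of 62 columns that each sum to 1000000; the genome is mm10 per the submitters' processing notes, and the sources used here do not give the aligner, counter, annotation, use of strand or filters. TPM keeps no depth, so no count test was run; a larger or smaller share taken by abundant transcripts shifts all other genes of a library. Columns were matched to samples by title, and 0 were left unmapped. The labels give no batch and call the libraries biological replicates without tying them to mice, so p-values measure the spread between libraries.

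From the TPM values, the 11107 genes averaging 1 TPM or more were fitted as log2(TPM + 1) with limma 3.58.1 (R 4.3.3; 1 mean per group, trended empirical Bayes, 50 residual degrees of freedom), and p-values were adjusted by Benjamini-Hochberg over all genes of each of 17 contrasts. Log2 changes of low genes are understated by the pseudocount of 1. Rescaling divided each library by the median of its ratios to the geometric mean library (factors 0.614 to 1.47). On simulated data with 200 changed genes for CAC against Con at 8 weeks, 94% of changes of 1 and 55% of changes of 0.5 on the log2 scale were called, with 10 unchanged genes called among 11107. These shares cover the 200 changed genes as a whole, where 8272 genes passed in the data, and were not given for the members alone. The SE at 8 weeks was 0.47 for Arntl, 0.47 for Nr1d1 and 0.44 for Dbp, so the shares do not apply to those members. Relations to Arntl used 100000 permutations within groups (scipy 1.17.1), whose smallest p is 1e-05. Positions are from GENCODE M21 (GRCm38, the assembly also called mm10).

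The members and lists were chosen with earlier results of these data known. All 10 members are named; of each further list, up to 4 called genes with the smallest adjusted p per contrast; and the 5 genes most like Arntl, Dbp and Per1. Nfil3 at 6 weeks and Bhlhe41 were named after their values were seen. A gene of the list of partners and regulators is not reported here and was left out of its counts.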

Additional observations from a re-analysis of the deposited data

Results flagged for a closer look

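Within the 120 groups of libraries examined gene by gene, 10 held a library whose gap to its nearest neighbour was large for the range of its group by Dixon's test; chance flags about 1 in 20 groups. CAC replicate 3 at 6 weeks stood apart for Cry1, at 18.0 TPM with the next library at 13.5 TPM, and for Nr1d2, at 34.1 TPM with the next at 55.4 TPM. CAC replicate 3 at 8 weeks, the library rich in haemoglobin RNA, stood apart for Dbp, at 152 TPM with the next at 65.1 TPM. CAC replicate 2 at 4 weeks had 31.2 TPM of Cry2 with the next library at 18.7 TPM.

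NCAC replicate 4 at 6 weeks had 8.93 TPM of Cry2 with the next library at 15.8 TPM, and NCAC replicate 2 at 2 weeks had 13.8 TPM of Cry2 with the next at 16.5 TPM. Con replicate 1 at 6 weeks stood apart for 3 members, with 6.39 TPM of Clock, 11.1 TPM of Cry1 and 100.9 TPM of Nr1d1, where the next libraries had 3.09, 9.27 and 44.1 TPM. Con replicate 1 at 2 weeks, the library with the most albumin RNA, had 6.24 TPM of Cry1 with the next at 8.20 TPM.

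The difference between CAC and Con muscle itself changed from 2 to 8 weeks for Cry1, by 0.62 on the log2 scale (limma, adjusted p = 0.00806), and for Cry2, by 1.04 (limma, adjusted p = 0.0354). The call of Cry1 ended when rescaled, and that of Cry2 ended under several settings.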

How the results depend on the processing

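Besides rescaling, the settings tried were a pseudocount of 0.1 TPM, no filter on low values, library weights per group, a replicate block, fits without the libraries above 100 TPM of Alb, fits on the compared weeks alone and each library left out in turn. For CAC against Con, the counts of members called were 5 at 6 weeks (2 when rescaled, 3 to 5 with a library left out, 3 without CAC replicate 1) and 6 at 8 weeks (5 to 6 with a library left out). After rescaling, 2 members were higher and 3 lower at 8 weeks. Nr1d1 and Nr1d2 were called there on that scale only, and Clock, Per2 and Cry1 were no longer called. For CAC against NCAC the counts were 6 at both weeks (4 to 6 with a library left out). On rescaled values 1 member was higher and 3 lower at 6 weeks, and 3 were higher and 3 lower at 8 weeks, in part other members. Beside these deposited counts, 64% to 74.5% of all genes passed. For the change in CAC against Con from 2 to 8 weeks the count was 2, and 1 with no filter, 1 when rescaled, 1 with the replicate block and 1 to 4 with a library left out; it was 1 without CAC replicate 1 and without Con replicate 2 or 3 of 2 weeks and without CAC replicate 1 or 6 of 8 weeks, and 4 without CAC replicate 3 of 8 weeks. The count of 0 of 10 held in every other comparison under every setting run. Rescaling reversed 2 member values with a call on either scale, both of Nr1d2 at 8 weeks, at -0.33 in CAC against Con and -0.42 in CAC against NCAC, and of the further genes named Slc2a4, at -0.052 in CAC against Con at 6 weeks; these values were above 0 before rescaling. The uncalled changes of Per2 at 6 weeks and Per3 at 8 weeks in CAC against Con also turned below 0.

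Of 170 member values per setting, rescaling ended 15 calls and made 6 in an unchanged direction, besides the 2 of Nr1d2, no filter ended 5, and the replicate block ended 2 and made 0. Libraries of the same number in 2 groups did not deviate together (correlations from -0.332 to 0.332), so the numbers pair no samples; the block ended the calls of Dbp in CAC against NCAC at 8 weeks (-0.94, adjusted p = 0.0773) and of Cry2 between weeks 2 and 8 (0.77, adjusted p = 0.0917). Library weights ended 3 calls, Clock in CAC against Con at 8 weeks, and Arntl (adjusted p = 0.106) and Per1 (adjusted p = 0.0526) in CAC against NCAC at 6 weeks. The call of Dbp in CAC against Con held under every setting run, with log2 changes from -2.01 to -1.08 at 6 weeks and from -1.83 to -1.04 at 8 weeks. Rescaled fits with a library left out or with weights were added after the data were seen. In them the weights ended the calls of Nr1d1 (adjusted p = 0.0681) and Nr1d2 (adjusted p = 0.075) in CAC against Con at 8 weeks, and in CAC against NCAC those of Clock at 6 weeks and of Per1, Cry1 and Nr1d1 at 8 weeks; Cry2 in CAC against NCAC ended without CAC replicate 1 (0.50, adjusted p = 0.0569) or 6 (0.51, adjusted p = 0.0565). The cause of these changes was not tested. The depth behind low members, Clock and Arntl above all, is unknown, and 5 libraries per group limit what a spread of this size can show.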

Other observations

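Within libraries, the log2 difference of Dbp minus Cry1, each as log2(TPM + 1), lay lower in CAC than in the other groups at 6 weeks without overlap, and overlapped at 8 weeks. It ran from -1.88 to 1.93 in CAC, from 2.96 to 3.44 in NCAC and from 2.08 to 3.18 in Con muscle at 6 weeks. At 8 weeks it ran from -0.9999 to 3.37 in CAC, from 2.07 to 3.79 in NCAC and from 2.96 to 3.53 in Con. Nr1d1 minus Arntl ran from -1.14 to 4.58 in CAC, from 3.30 to 4.26 in NCAC and from 3.25 to 4.19 in Con muscle at 8 weeks. These pairs were chosen after the values were seen and were given no test.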
